A study of Rattus norvegicus with 18 samples.

Results

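The transcripts described here are the α-globin mRNA Hba1 and 4 mRNAs typical of skeletal muscle, Ckm, Tnnc2, Myh1 and Car3. They were taken by gene symbol from the table of read counts, where Myh1 has 2 entries, so 5 symbols gave 6 of the 13416 transcript entries. The table comes from axoplasm, the cytoplasm squeezed out of nerve fibres, of SD rats whose sciatic nerve had been crushed 7 days earlier. The nerve proximal to the crush was used, and the axoplasm was cleared by centrifugation and with bare Protein A/G beads. RNA bound to a protein was then precipitated with an antibody (RNA immunoprecipitation, RIP). The 5 RIP groups used antibodies raised to La/SSB and to hnRNP H1, hnRNP F and hnRNP K, and the FLAG antibody, the control precipitation, since FLAG is an epitope tag that unmodified rats lack. The sixth group, Input, is axoplasm RNA that was not precipitated. Each group had 3 libraries, numbered 1 to 3, which gives 18, and every group shares the strain, the injury, the time point and the clearing step. The labels do not say whether libraries came from separate or pooled animals, so the p-values measure the spread between these libraries, which may be technical.

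Hba1 codes for the α chain of adult hemoglobin and is one of the most abundant mRNAs of reticulocytes, the immature red cells that still hold RNA. Ckm codes for muscle creatine kinase, which regenerates ATP from phosphocreatine, and Tnnc2 for the calcium-binding troponin C of fast fibres. Myh1 codes for a fast myosin heavy chain, the motor of the thick filament, and Car3 for carbonic anhydrase III, which is abundant in slow muscle fibres and in fat cells. A sciatic nerve has blood vessels and connective tissue and lies between muscles. In bulk RNA of this kind, fewer cells of a type and less RNA per cell cannot be told apart.

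The stretch before the transcription start is shown for Ckm and Tnnc2, which were both lowest in the library numbered 2 of every group, and for Hba1, which was not. A Myh1 entry was also lowest there in every group, but the Myh1 window, with 0 E-boxes, is counted below and not printed. No Car3 window was counted. These are the 250 bases before the RefSeq start in build GRCr8, printed along the gene's own strand. Capitals mark the E-box CANNTG, the letters that the myogenic basic helix-loop-helix factors bind, in Ckm and Tnnc2, and CACCC, the letters bound by Krüppel-like factors, in Hba1.
Ckm, chr1:88189211-88189460, plus strand: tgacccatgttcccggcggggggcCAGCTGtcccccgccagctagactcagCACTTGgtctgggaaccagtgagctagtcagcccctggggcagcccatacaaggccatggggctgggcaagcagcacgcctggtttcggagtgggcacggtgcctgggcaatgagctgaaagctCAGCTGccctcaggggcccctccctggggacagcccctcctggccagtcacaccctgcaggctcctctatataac
Tnnc2, chr3:173935340-173935589, minus strand: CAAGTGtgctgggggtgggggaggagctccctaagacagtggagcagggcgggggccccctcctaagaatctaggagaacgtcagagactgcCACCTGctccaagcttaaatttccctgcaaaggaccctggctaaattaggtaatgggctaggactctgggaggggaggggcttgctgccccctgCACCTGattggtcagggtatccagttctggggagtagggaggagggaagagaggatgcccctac
Hba1, chr10:15842581-15842830, minus strand, RefSeq symbol Hba-a1: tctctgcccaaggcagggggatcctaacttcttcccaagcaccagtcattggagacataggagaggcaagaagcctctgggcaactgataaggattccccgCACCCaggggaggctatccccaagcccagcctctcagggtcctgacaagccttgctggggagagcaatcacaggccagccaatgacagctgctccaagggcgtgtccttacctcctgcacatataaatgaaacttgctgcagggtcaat
Ckm and Tnnc2 each held 3 E-boxes, Hba1 held 2 and the Myh1 window held 0. An E-box occurred in 65.5% of 33469 windows of 250 bases, so 3 of these 4 genes having one is close to the share of all genes. The CACCC letters, searched on both strands, occurred once in Hba1, Ckm and Tnnc2 and in 49.2% of all windows. The TATAAA letters occurred once in Hba1, 2 times in Myh1 and in 12.9% of windows. The letters AGATAA, a form of the letters bound by GATA factors, occurred in none of these 4 windows and in 10.3% of all. Other forms were not counted, and the printed Hba1 window holds TGATAA. No E-box overlapped a CACCC or TATAAA match. These matches describe letters in a window and not binding.

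Read totals ran from 4610750 to 16754262 per library. Levels are given as CPM, reads per 1e6 reads after TMM scaling over the 18 libraries, and 3 reads correspond to 0.156 to 0.578 CPM. All 6 entries passed the filter on low counts in both fits. FLAG RIP libraries 1, 2 and 3 had 1601, 776 and 1568 entries at 0 reads, and La/SSB RIP 1 had none, with at least 10 reads for every entry. Entries with few reads are thus present only if La/SSB RIP 1 has them, which favours rises with La/SSB in the counts below. Of the tissue lists, Schwann cell transcripts held 0.147% to 0.238% of FLAG RIP reads against 0.319% to 0.385% of Input reads. Neuronal transcripts held 0.0988% to 0.11% of FLAG RIP reads against 0.103% to 0.128% of Input reads, and fibroblast transcripts 1.62% to 2.6% against 4.84% to 9.65%. Leukocyte transcripts held 0.342% to 0.490% of FLAG RIP reads against 0.495% to 0.604% of Input reads, endothelial transcripts 0.00837% to 0.0220% against 0.0241% to 0.0333%, and smooth muscle and mural transcripts 0.0468% to 0.0859% against 0.0456% to 0.0628%.

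Levels per transcript length, as FPKM, differed by orders of magnitude between the transcripts. In Input libraries 1, 2 and 3 Hba1 stood at 13751, 5789 and 7632 FPKM and Car3 at 402, 246 and 218 FPKM. In the same order Ckm stood at 260, 17.04 and 76.6 FPKM and Tnnc2 at 90.05, 10.7 and 67.7 FPKM. Hba1 was thus the highest of the 6 entries in each Input library, and Car3 the second. The higher Myh1 entry, called Myh1-A here, had 4.17, 0.505 and 4.22 FPKM in Input, and the lower one, Myh1-B, had 1.99, 0.491 and 0.0735 FPKM. In counts of reads Hba1 took 2.01%, 0.649% and 0.975% of FLAG RIP libraries 1, 2 and 3, against 0.765%, 0.322% and 0.424% of Input libraries 1, 2 and 3.

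**Figure D1:**
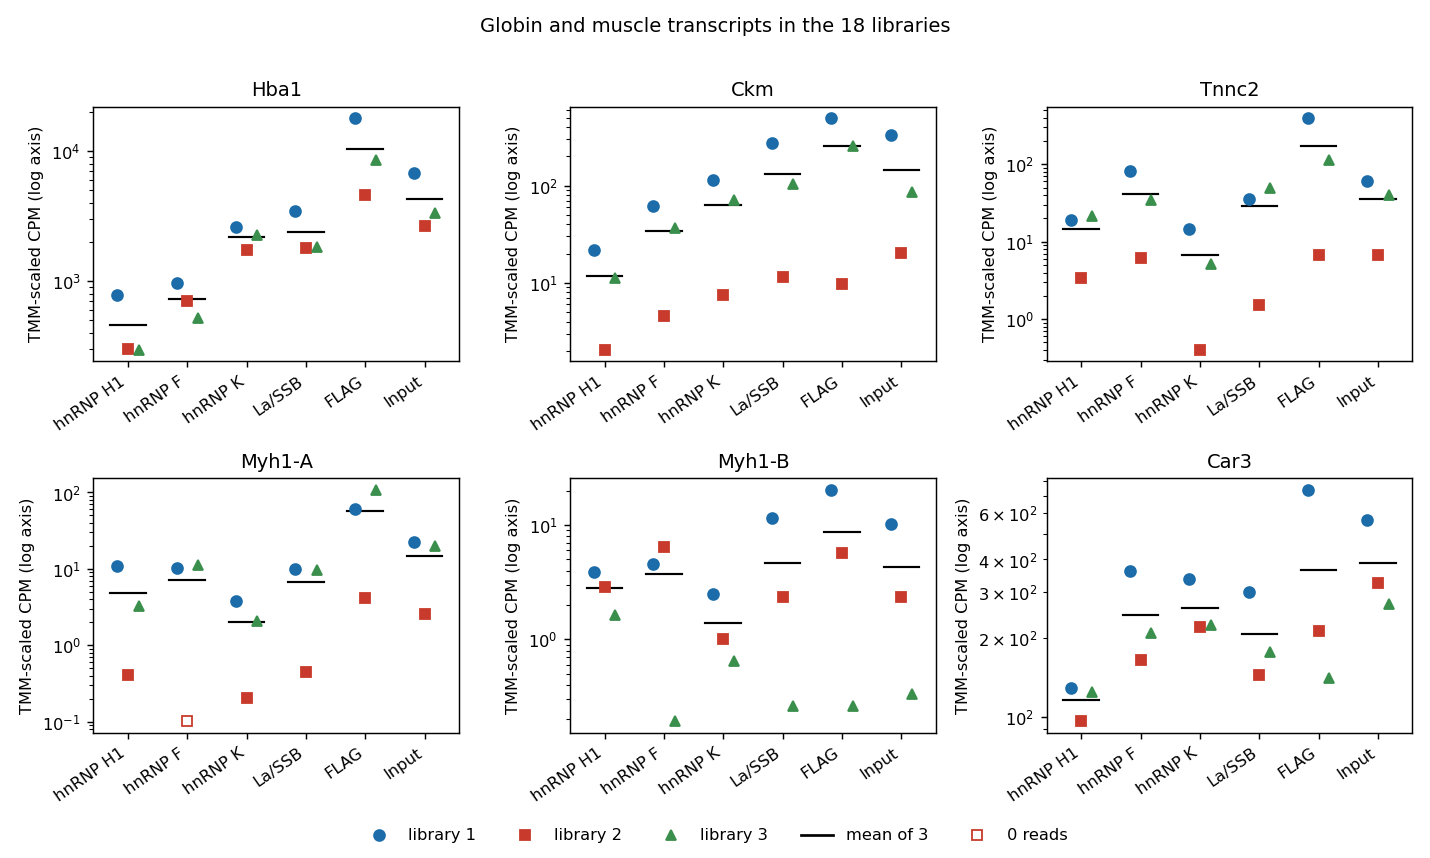
TMM-scaled CPM on log axes of the 6 entries in the 18 libraries, with 1 panel per entry, the 6 groups along the horizontal axis, a marker per library number and a bar for the mean of 3. Hba1 is lower in every specific RIP library than in every FLAG RIP library, while Ckm, Tnnc2 and Myh1-A have their lowest value in the library numbered 2 of every group.

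A set of 4 comparisons put a specific RIP against FLAG RIP and share the same 3 FLAG libraries, so they are not independent of each other. A call is an adjusted p under 0.05 by the quasi-likelihood F-test of edgeR with Benjamini-Hochberg adjustment over all transcripts tested. In the hnRNP H1 RIP 4 of 6 entries fell against FLAG RIP, where 17.1% of 13227 transcripts fell. In the hnRNP F RIP 1 of 6 fell, where 13.6% of all transcripts fell. In the hnRNP K RIP 3 of 6 fell, against 14.9% of all transcripts, and in the La/SSB RIP 1 of 6, against 5.36%. By edgeR or DESeq2 0 of the 6 rose in these 4 comparisons, every fold being below 0, where 18.7%, 16.5%, 15.7% and 8.51% of all transcripts rose with hnRNP H1, hnRNP F, hnRNP K and La/SSB. The median log2 fold change of the 6 entries was -3.63 with hnRNP H1, -2.51 with hnRNP F, -2.41 with hnRNP K and -1.59 with La/SSB. The median over all transcripts tested was -0.10 for each of the 3 hnRNPs and -0.11 for La/SSB. Without single libraries the number of entries called ran from 1 to 5 for hnRNP H1, from 1 to 2 for hnRNP F and from 1 to 3 for hnRNP K, and stayed at 1 for La/SSB. It was 1 without hnRNP H1 RIP 2, and 2 without hnRNP H1 RIP 3 or without FLAG RIP 1, for hnRNP H1. For hnRNP K it was 1 without hnRNP K RIP 2 or 3, and for hnRNP F it was 2 without FLAG RIP 2.

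A further 5 comparisons put a group against Input and share the 3 Input libraries. With hnRNP H1 2 of 6 entries fell, where 10.2% of 13263 transcripts fell, and with hnRNP F 1 of 6 fell, where 7.28% did. Without hnRNP H1 RIP 2, or without Input 1, the count for hnRNP H1 was 1. With hnRNP K edgeR called 0 of 6 lower, where 6.24% of transcripts fell, with 1 entry at an unadjusted p under 0.05 and 0 called by DESeq2. With La/SSB edgeR called 0 of 6, where 0.0452% of transcripts changed in either direction, with 0 entries at an unadjusted p under 0.05 and 0 called by DESeq2. For FLAG RIP against Input edgeR called 0 of 6, where 11.9% of transcripts changed, with 1 entry, Hba1, at an unadjusted p under 0.05 and 0 called by DESeq2. Without FLAG RIP 2, or without Input 1, that count was 1.

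**Figure D2:**
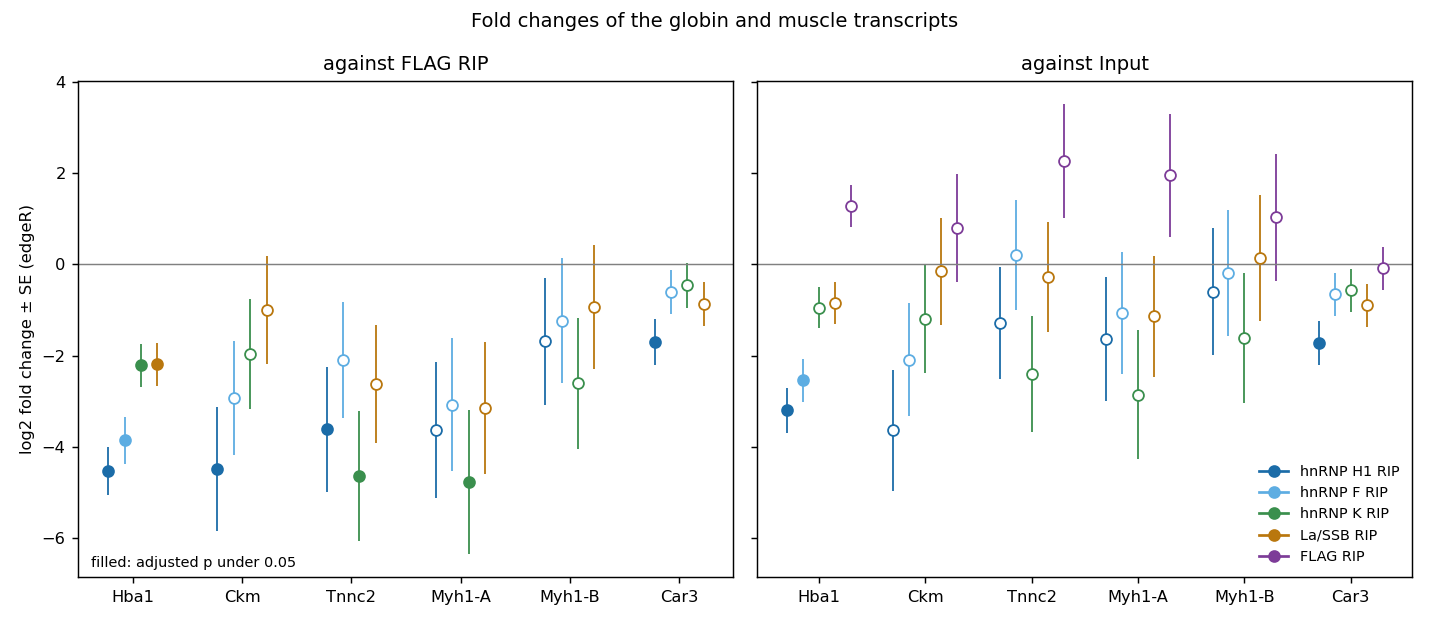
Log2 fold changes from edgeR, with the SE as bars, of the 6 entries against FLAG RIP (left) and against Input (right), coloured by group, with filled points where the adjusted p was under 0.05. Hba1 has the shortest bars together with Car3, and its 4 points against FLAG RIP, from -4.54 to -2.19, are all filled.

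Hba1 (ENSRNOT00000051483, chromosome 10, 556 bases) was lower in each specific RIP than in FLAG RIP. It had 789, 303 and 297 CPM in hnRNP H1 RIP libraries 1, 2 and 3, and 966, 709 and 521 CPM in hnRNP F RIP libraries 1, 2 and 3. In hnRNP K RIP libraries 1, 2 and 3 it had 2609, 1736 and 2274 CPM, and in La/SSB RIP 3464, 1814 and 1841 CPM. It had 17953, 4642 and 8520 CPM in FLAG RIP libraries 1, 2 and 3, against 6776, 2682 and 3323 CPM in Input. Every specific RIP library lay below the lowest FLAG library, a separation that 19.4%, 16%, 20.5% and 12.6% of transcripts showed with hnRNP H1, hnRNP F, hnRNP K and La/SSB. The hnRNP H1 and hnRNP F libraries lay below all others, overlapping each other only.

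Against FLAG RIP, Hba1 fell with hnRNP H1 to 463 ± 283 CPM, against 10372 ± 6846 CPM in FLAG RIP (SD, n = 3 each, log2 fold change -4.54 ± 0.52, edgeR adjusted p = 6.16e-06). With hnRNP F it fell to 732 ± 224 CPM (log2 fold change -3.86 ± 0.51, edgeR adjusted p = 2.84e-05). With hnRNP K it averaged 2206 ± 440 CPM (-2.21 ± 0.47, edgeR adjusted p = 0.00217) and with La/SSB 2373 ± 945 CPM (-2.19 ± 0.47, edgeR adjusted p = 0.00769). The hnRNP H1 and hnRNP F calls held under all 15 alternatives tried, with adjusted p up to 0.00154 and 0.00195. Without FLAG RIP 1, the highest FLAG library, the hnRNP K fold was -1.55 and the La/SSB fold -1.52, and both were still called. With only the 6 libraries compared the La/SSB adjusted p by edgeR was 0.0631.

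Against Input, which averaged 4260 ± 2202 CPM (SD, n = 3), Hba1 fell with hnRNP H1 (log2 fold change -3.20 ± 0.49, edgeR adjusted p = 6.58e-05) and with hnRNP F (-2.54 ± 0.48, edgeR adjusted p = 0.000732). Both calls held under all 14 alternatives. The fold was -0.95 ± 0.45 with hnRNP K (edgeR adjusted p = 0.194), although all 3 hnRNP K libraries lay below the 3 Input libraries, as 22.5% of transcripts did (18.9% with hnRNP F and 22.8% with hnRNP H1). It was -0.84 ± 0.45 with La/SSB (edgeR adjusted p = 0.759), where the libraries overlapped. The hnRNP K value was called when libraries were scaled by total counts alone (-1.61, edgeR adjusted p = 0.0129) and with only the 6 libraries compared (-0.97, edgeR adjusted p = 0.0333). FLAG RIP against Input gave 1.28 ± 0.46 (edgeR adjusted p = 0.0711), and the 2 groups overlapped. This was called without FLAG RIP 2 (1.68, edgeR adjusted p = 0.0157), without Input 1 (1.83, edgeR adjusted p = 0.0454) and on the counts as deposited (1.54, edgeR adjusted p = 0.0312). The authors' deposited table gives 1.53 with an FDR of 0.0101 for the same pair. Among the 4 specific RIPs 1 of 6 entries differed, where 30.7% of all transcripts did. It was Hba1 (edgeR F = 12.4, adjusted p = 0.00102), and its call held under all 20 alternatives. In order of mean CPM Hba1 ran FLAG RIP, Input, La/SSB, hnRNP K, hnRNP F and hnRNP H1, and the only neighbours in that order whose libraries did not overlap were hnRNP K and hnRNP F.

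Another 2 globins were measured, Hba2, a near-identical α-globin copy on chromosome 10, and Hbb, the β chain, on chromosome 1. Reads of Hba1 and Hba2 may have been split between the copies, so their separate values are uncertain. Against FLAG RIP, Hba2 fell with hnRNP H1 (log2 fold change -3.77 ± 0.41), hnRNP F (-2.60 ± 0.39) and La/SSB (-1.20 ± 0.37, edgeR adjusted p = 0.038), but had -0.64 ± 0.37 with hnRNP K (edgeR adjusted p = 0.195). Hbb fell with hnRNP H1 (-4.19 ± 0.53), hnRNP F (-2.81 ± 0.49), hnRNP K (-2.95 ± 0.50) and La/SSB (-2.03 ± 0.48). FLAG RIP against Input gave -0.21 ± 0.37 for Hba2 (edgeR adjusted p = 0.751) and 1.23 ± 0.45 for Hbb (edgeR adjusted p = 0.0755).

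Within a library, the ratio of Hba1 to Hba2 in FPKM was highest in FLAG RIP. It was 18.1, 13.9 and 18.5 in FLAG RIP libraries 1, 2 and 3, against 6.38, 5.40 and 6.54 in Input, with no overlap. It was 14.1, 6.87 and 8.33 in hnRNP H1 RIP, 8.53, 6.92 and 6.02 in hnRNP F RIP, 5.60, 5.64 and 6.39 in hnRNP K RIP and 9.66, 8.31 and 7.96 in La/SSB RIP. Only hnRNP H1 RIP 1 reached the range of the FLAG libraries. The ratio of Hba1 to Hbb in FPKM was 42.8, 29.0 and 33.2 in hnRNP K RIP libraries 1, 2 and 3, above 21.1, 14.5 and 27.1 in FLAG RIP libraries 1, 2 and 3. In the hnRNP F RIP it was 9.79, 10.4 and 10.5, below every other library. These ratios were not tested.

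**Figure D3:**
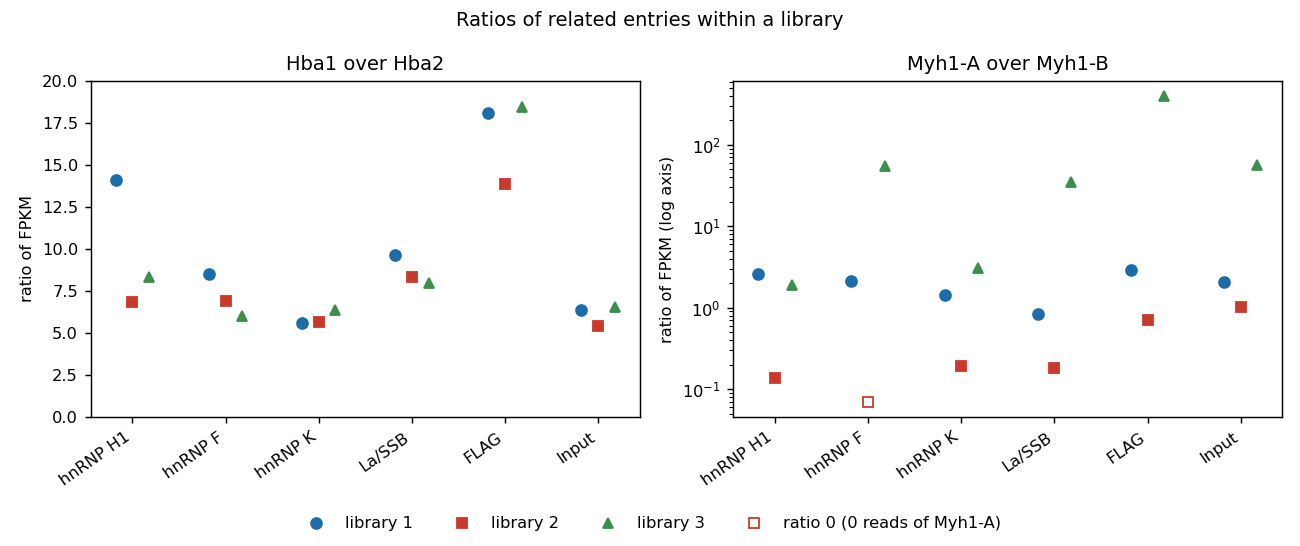
Ratios of FPKM within each library, of Hba1 over Hba2 on a linear axis (left) and of Myh1-A over Myh1-B on a log axis (right), by group, with a marker per library number and an open square for a ratio of 0. The 3 FLAG RIP values of Hba1 over Hba2, 13.9 to 18.5, lie above the 3 Input values, 5.40 to 6.54, whereas Myh1-A over Myh1-B is lowest in the library numbered 2 of every group and highest in the library numbered 3 of every group but hnRNP H1 RIP.

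Ckm (ENSRNOT00000022895, chromosome 1, 1438 bases) varied more between the libraries of a group than between most groups. It had 21.8, 2.06 and 11.3 CPM in hnRNP H1 RIP libraries 1, 2 and 3, and 62.0, 4.51 and 36.4 CPM in hnRNP F RIP. It had 113, 7.59 and 70.5 CPM in hnRNP K RIP libraries 1, 2 and 3, and 277, 11.6 and 104 CPM in La/SSB RIP. In FLAG RIP it had 491, 9.83 and 257 CPM, against 331, 20.4 and 86.2 CPM in Input. The library numbered 1 was the highest and the library numbered 2 the lowest in all 6 groups. FLAG RIP 2 therefore lay below at least 2 of the 3 libraries of every other group. The lowest value, in hnRNP H1 RIP 2, rested on 15 reads (95% exact Poisson interval 8.40 to 24.7 reads, counting error only).

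Ckm fell with hnRNP H1 against FLAG RIP, to 11.7 ± 9.90 CPM against 253 ± 241 CPM (SD, n = 3 each, log2 fold change -4.49 ± 1.35, edgeR adjusted p = 0.0156), although the groups overlapped. The call was lost without hnRNP H1 RIP 2 (edgeR adjusted p = 0.0614) or 3 (0.0555). Its fold against FLAG RIP was -2.93 ± 1.25 with hnRNP F (edgeR adjusted p = 0.0861), -1.96 ± 1.21 with hnRNP K (0.228) and -1.001 ± 1.17 with La/SSB (0.619). The La/SSB value ran from -2.21 without La/SSB RIP 1 to -0.08 without FLAG RIP 1, and the hnRNP K value was -1.04 without FLAG RIP 1. The hnRNP F value was called without FLAG RIP 2 (-3.49, edgeR adjusted p = 0.0295) and in the authors' deposited table, where it is -3.12 with an FDR of 0.022. With the library number added to the fit as a block, the hnRNP F (edgeR adjusted p = 0.000381) and hnRNP K (0.00779) values were called, and La/SSB was not (0.172). No label ties these numbers to animals. Against Input the hnRNP H1 value was -3.64 ± 1.32 (edgeR adjusted p = 0.0524), and 7 of 14 alternatives called it. Among them were DESeq2 (-3.59, adjusted p = 0.0298) and the fit without Input 2 (-4.18, edgeR adjusted p = 0.0411). Others were only the libraries compared (-3.65, edgeR adjusted p = 0.00624), total counts (-4.17, 0.0226) and the counts as deposited (-3.63, 0.046). Ckb, the brain form of creatine kinase, which many cells express, did not share this spread. It had 323, 429 and 502 CPM in FLAG RIP libraries 1, 2 and 3, against 147, 165 and 200 CPM in Input, all above Input as 12% of transcripts were (log2 fold change 1.29 ± 0.34, edgeR adjusted p = 0.019). Ckb also fell against FLAG RIP with hnRNP H1 (-3.42 ± 0.39), hnRNP F (-2.03 ± 0.37), hnRNP K (-2.97 ± 0.38) and La/SSB (-1.22 ± 0.36).

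Tnnc2 (ENSRNOT00000020348, chromosome 3, 752 bases) had 18.9, 3.43 and 21.3 CPM in hnRNP H1 RIP libraries 1, 2 and 3, and 82.1, 6.12 and 34.9 CPM in hnRNP F RIP. It had 14.6, 0.405 and 5.18 CPM in hnRNP K RIP, the first of these values resting on 157 reads and the second on 4 (95% exact Poisson interval 1.09 to 10.2 reads). It had 36.0, 1.53 and 49.9 CPM in La/SSB RIP. FLAG RIP libraries 1, 2 and 3 had 392, 6.72 and 115 CPM, against 60.0, 6.69 and 39.9 CPM in Input. The library numbered 2 was the lowest in every group, and FLAG RIP 2 was as low as Input 2. FLAG RIP 1 and 3 lay above all other libraries.

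Tnnc2 fell with hnRNP K against FLAG RIP, to 6.73 ± 7.22 CPM against 171 ± 199 CPM (SD, n = 3 each, log2 fold change -4.64 ± 1.43, edgeR adjusted p = 0.0207). It also fell with hnRNP H1, to 14.6 ± 9.71 CPM (-3.62 ± 1.36, edgeR adjusted p = 0.046). Both groups overlapped FLAG RIP, through FLAG RIP 2. The hnRNP H1 call was lost without any 1 of the hnRNP H1 libraries or without FLAG RIP 1 (edgeR adjusted p = 0.0885 to 0.206), and the hnRNP K call without hnRNP K RIP 2, hnRNP K RIP 3 or FLAG RIP 1 (edgeR adjusted p = 0.065 to 0.0792). The folds against FLAG RIP were -2.10 ± 1.28 with hnRNP F (edgeR adjusted p = 0.226) and -2.62 ± 1.2985 with La/SSB (0.191). The hnRNP F value ran from -3.17 without hnRNP F RIP 1 to -0.61 without FLAG RIP 1, and the La/SSB value was -1.13 without FLAG RIP 1. In the authors' deposited table the La/SSB value is -2.92 with an FDR of 0.0455, and the hnRNP F value -2.32 with an FDR of 0.091. With the library number as a block the La/SSB value was called (edgeR adjusted p = 0.0235), and the hnRNP F value was not (0.0671). FLAG RIP against Input gave 2.27 ± 1.26 (edgeR adjusted p = 0.241). The ratio of Ckm to Tnnc2 in FPKM was 4.06, 9.81 and 7.11 in hnRNP K RIP libraries 1, 2 and 3, against 0.655, 0.765 and 1.17 in FLAG RIP. It was 0.604, 0.314 and 0.278 in hnRNP H1 RIP and 0.395, 0.385 and 0.546 in hnRNP F RIP, and in La/SSB RIP it was 4.03, 3.97 and 1.09, against 2.89, 1.60 and 1.13 in Input. All 3 hnRNP K and 2 of the 3 La/SSB libraries lay above the Input libraries, and the hnRNP H1 and hnRNP F libraries below them, in this ratio, which was not tested.

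The 2 Myh1 entries, Myh1-A (ENSRNOT00000045718, 6013 bases) and Myh1-B (ENSRNOT00000004236, 5748 bases), both lie on chromosome 10, where fast myosin genes of near-identical sequence stand side by side. Both carry a gene number that matches no single gene, so which myosin each one counts is uncertain. Myh1-A had 10.8, 0.412 and 3.28 CPM in hnRNP H1 RIP libraries 1, 2 and 3, and 10.2, 0 and 11.2 CPM in hnRNP F RIP. It had 3.81, 0.202 and 2.11 CPM in hnRNP K RIP, and 10.1, 0.449 and 9.74 CPM in La/SSB RIP. The 0 reads in hnRNP F RIP 2 allow a level of up to 0.483 CPM. FLAG RIP libraries 1, 2 and 3 had 60.6, 4.21 and 108 CPM, against 22.2, 2.53 and 19.9 CPM in Input. The library numbered 2 was again the lowest in every group, and it rested on 0 to 5 reads in the 4 specific RIPs.

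Myh1-A fell with hnRNP K against FLAG RIP, to 2.04 ± 1.805 CPM against 57.5 ± 51.9 CPM (SD, n = 3 each, log2 fold change -4.78 ± 1.58, edgeR adjusted p = 0.0291), with all hnRNP K libraries below all FLAG libraries, as in 20.5% of transcripts. The call was lost without any 1 of the hnRNP K libraries or without FLAG RIP 3 (edgeR adjusted p = 0.0588 to 0.0963). The folds were -3.63 ± 1.497 with hnRNP H1 (edgeR adjusted p = 0.0665), -3.08 ± 1.46 with hnRNP F (0.119) and -3.15 ± 1.46 with La/SSB (0.16). The hnRNP H1 value was called without FLAG RIP 2 (-4.18, edgeR adjusted p = 0.0331), with scaling by total counts (-4.09, 0.0356) and on the counts as deposited (-3.85, 0.034). With the library number as a block, hnRNP H1 (edgeR adjusted p = 0.00256), hnRNP F (0.00375) and La/SSB (0.0134) were called. The authors' deposited table gives -3.82 with hnRNP H1 (FDR 0.00863), -3.20 with hnRNP F (FDR 0.0283) and -3.43 with La/SSB (FDR 0.0273).

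Myh1-B had 3.91, 2.88 and 1.64 CPM in hnRNP H1 RIP libraries 1, 2 and 3, and 4.59, 6.44 and 0.193 CPM in hnRNP F RIP. It had 2.51, 1.01 and 0.648 CPM in hnRNP K RIP, and 11.5, 2.34 and 0.263 CPM in La/SSB RIP. FLAG RIP libraries 1, 2 and 3 had 20.2, 5.71 and 0.261 CPM, against 10.2, 2.35 and 0.331 CPM in Input. Here the library numbered 3 was the lowest in every group, as in 0.483% of transcripts, with 1 to 10 reads. No comparison called Myh1-B, and its folds against FLAG RIP ran from -2.61 with hnRNP K to -0.93 with La/SSB. The ratio of Myh1-A to Myh1-B in FPKM was 2.87, 0.704 and 395 in FLAG RIP libraries 1, 2 and 3, against 2.09, 1.03 and 57.4 in Input. Within each group the library numbered 2 had the lowest ratio, and the library numbered 3 had the highest in all groups except hnRNP H1 RIP, where it was 1.91 against 2.63 in library 1.

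Car3 (ENSRNOT00000014180, chromosome 2, 1586 bases) was the most even of the muscle entries. It had 129, 96.3 and 124 CPM in hnRNP H1 RIP libraries 1, 2 and 3, and 361, 165 and 209 CPM in hnRNP F RIP. It had 336, 221 and 225 CPM in hnRNP K RIP, and 300, 145 and 178 CPM in La/SSB RIP. FLAG RIP libraries 1, 2 and 3 had 737, 213 and 141 CPM, against 566, 325 and 271 CPM in Input. The 3 hnRNP H1 libraries were the lowest of all 18. Library 1 was the highest in every group.

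Car3 fell with hnRNP H1 to 116 ± 17.6 CPM, against 364 ± 325 CPM in FLAG RIP (SD, n = 3 each, log2 fold change -1.70 ± 0.50, edgeR adjusted p = 0.0139). It also fell against Input, which averaged 387 ± 157 CPM (-1.73 ± 0.48, edgeR adjusted p = 0.0121). Both hold with no overlap between the libraries, a separation that 19.4% and 22.8% of transcripts showed in these comparisons. The call against FLAG RIP was lost without FLAG RIP 1 (-0.65, edgeR adjusted p = 0.2) or hnRNP H1 RIP 2 (-1.58, 0.0569), and that against Input without Input 1 (-1.38, edgeR adjusted p = 0.0756) or hnRNP H1 RIP 2 (-1.61, 0.0545). Its other folds against FLAG RIP were -0.61 ± 0.49 with hnRNP F, -0.46 ± 0.49 with hnRNP K and -0.87 ± 0.49 with La/SSB, none called. FLAG RIP against Input gave -0.09 ± 0.47 (edgeR adjusted p = 0.924). Car2, the carbonic anhydrase II of red cells and many other tissues, reached 0.476 to 16.7 FPKM outside FLAG RIP 3, where it had 1 read, and no comparison called it.

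The spread within the FLAG RIP group was nearer that of most transcripts for Hba1 and Car3 than for Ckm, Tnnc2 and the Myh1 entries. The highest FLAG library exceeded the lowest 3.87-fold for Hba1 and 5.23-fold for Car3, but 50.0-fold for Ckm, 58.4-fold for Tnnc2, 25.6-fold for Myh1-A and 77.5-fold for Myh1-B. As the SD of log2 CPM over the 3 FLAG libraries this was 0.98 for Hba1, against a median of 0.98 over all transcripts. It was 1.24 for Car3, 3.01 for Ckm, 2.99 for Tnnc2, 2.46 for Myh1-A and 2.77 for Myh1-B. Of all transcripts 50.0% had a smaller SD than Hba1 in FLAG RIP, 60.5% a smaller one than Car3 and 94.3% a smaller one than Ckm. This share was 94.1% for Tnnc2, 87.6% for Myh1-A and 91.8% for Myh1-B. In the other groups the share with a smaller SD than Ckm was 92.9% in hnRNP H1 RIP, 89.9% in hnRNP F RIP, 99.5% in hnRNP K RIP, 99.3% in La/SSB RIP and 96.8% in Input.

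The library numbers went with the muscle transcripts in all groups, a pattern noticed after the values were seen and given without a test. The library numbered 2 was the lowest of its 3 in all 6 groups for 3 of the 6 entries, Ckm, Tnnc2 and Myh1-A, against 0.287% of the 13263 transcripts tested. The library numbered 1 was the highest in all 6 groups for Hba1, Ckm and Car3, against 1.41% of transcripts. Of 53 other entries on the lists of contractile, energy and calcium genes of skeletal muscle, 7 had library 2 as the lowest in all 6 groups. They were Acta1, the skeletal α-actin, Actn3, the α-actinin of fast fibres, Neb, the thin-filament ruler nebulin (1 of its 2 entries), Mylpf, a fast myosin light chain, Ampd1, muscle AMP deaminase, Pygm, muscle glycogen phosphorylase, and Pvalb, the calcium buffer parvalbumin. In 20 of the 53 entries (37.7%) this held in 5 or 6 groups, against 1.64% of all transcripts. Other entries of these lists did not follow. Library 2 was the lowest in at most 1 group for Ldha, Pfkm, the muscle phosphofructokinase, and Jsrp1, a protein of the sarcoplasmic reticulum, and for single entries of Tpm2, Atp2a2, Ldb3 and Aldoa and 2 entries each of Tpm1 and Tpm3. Among 17 other erythroid entries library 2 was the lowest in all groups for 0 and in 5 or 6 groups for 1 (5.88%). Among 16 adipocyte entries these counts were 0 and 2 (12.5%), and among 11 smooth muscle and mural entries 0 and 1 (9.09%). In all 6 groups library 1 was the highest for 10 of the 53 muscle and 4 of the 17 erythroid entries. The same held for 3 of 16 adipocyte and 3 of 13 fibroblast entries, against 1.41% of all transcripts. It held for 0 of the smooth muscle, leukocyte, Schwann cell, endothelial and neuronal entries. Low values of some other lists went with other numbers. Library 1 was the lowest in 5 or 6 groups for 5 of 13 Schwann cell entries (38.5%) and 2 of 10 neuronal entries (20%), against 7.24% of all transcripts. Library 3 was the lowest in 5 or 6 groups for 4 of 13 fibroblast entries (30.8%), 2 of 7 endothelial entries (28.6%) and 2 of 13 Schwann cell entries (15.4%), against 3.5% of all transcripts. Whether libraries of the same number share animals or a day of preparation is not stated.

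**Figure D4:**
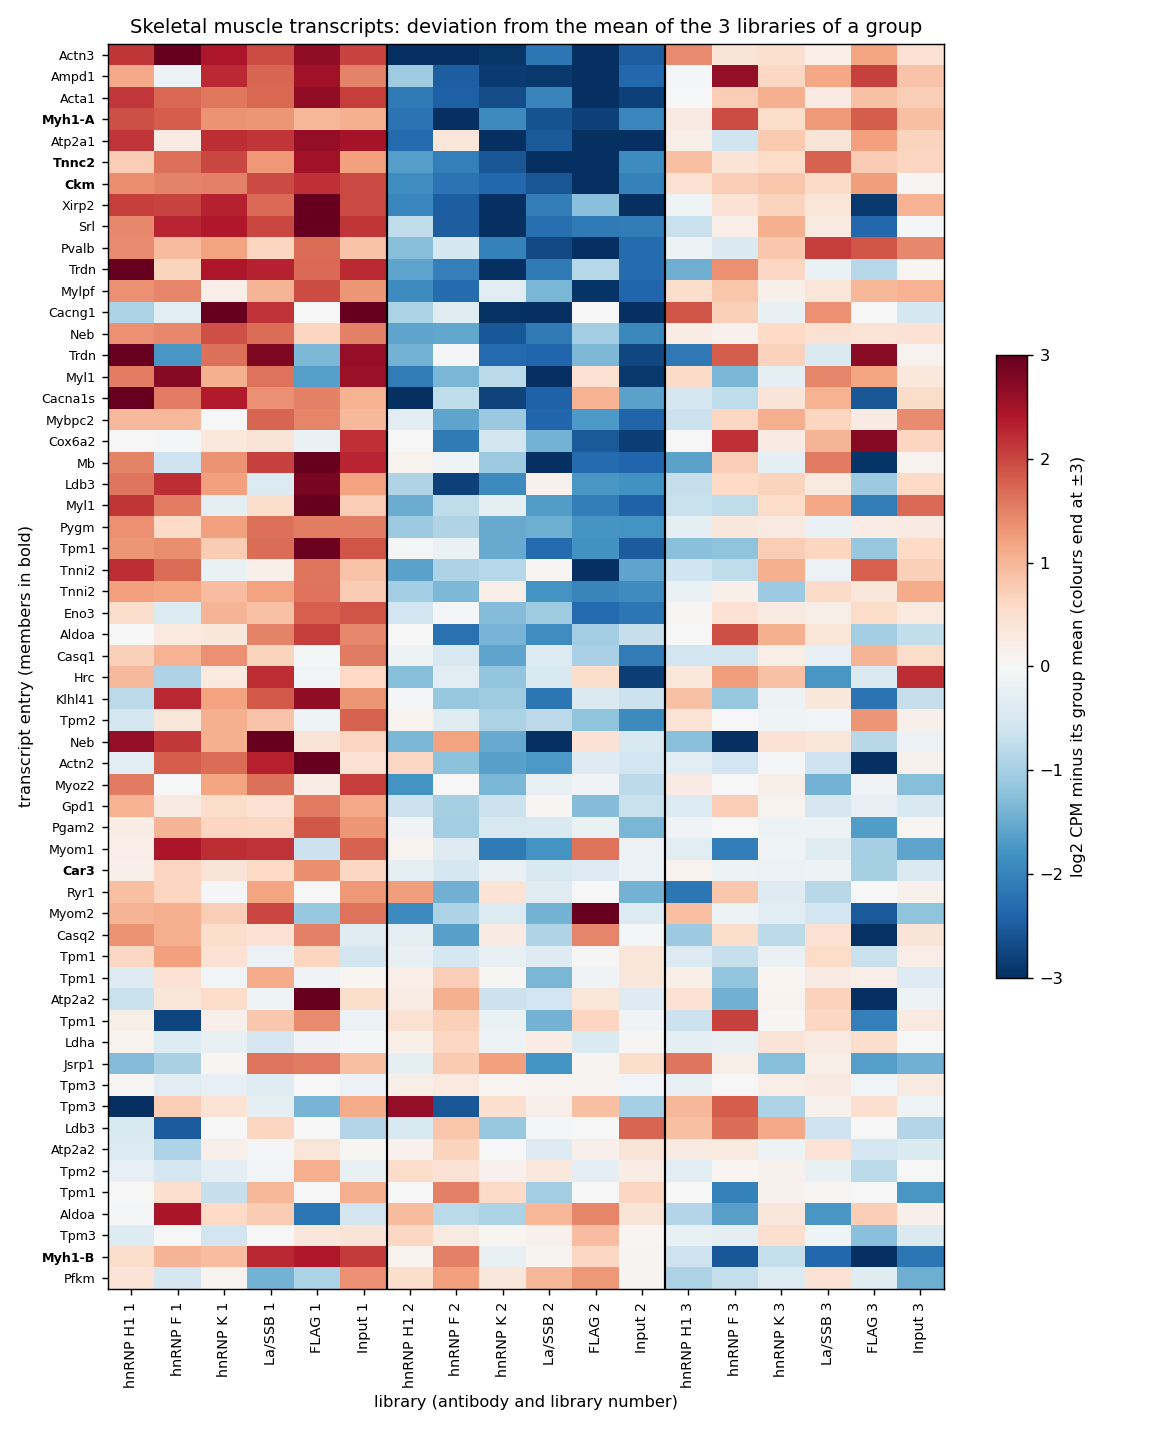
Deviation of log2 CPM from the mean of the 3 libraries of the same group for the skeletal muscle entries (rows, ordered by their mean deviation in the libraries numbered 2, the entries described here in bold), with the 18 libraries as columns arranged by library number. Colours end at 3 on either side; Ckm, Tnnc2 and Myh1-A stand among the rows that are blue in all 6 libraries numbered 2, and Myh1-B at the bottom is blue in those numbered 3.

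Other red cell transcripts were described from a list of 36 symbols, of which 18 have a row. The list without Hba1 held 0.0302% to 0.0347% of reads in hnRNP H1 RIP, 0.0278% to 0.0563% in hnRNP F RIP, 0.0507% to 0.0609% in hnRNP K RIP and 0.0722% to 0.127% in La/SSB RIP. It held 0.124% to 0.285% in FLAG RIP and 0.113% to 0.212% in Input. Of its 17 entries tested against FLAG RIP, 4 rose and 4 fell with hnRNP H1, 3 rose and 6 fell with hnRNP F, 2 rose and 1 fell with hnRNP K, and 2 rose and 2 fell with La/SSB. Over all transcripts 18.7%, 16.5%, 15.7% and 8.51% rose and 17.1%, 13.6%, 14.9% and 5.36% fell in these comparisons. Read against these shares, the 6 entries that fell with hnRNP F stand furthest above, and those called with hnRNP K lie below. Their medians were -0.26, -0.31, 0.52 and -0.34 in that order of antibodies. Besides Hba2 and Hbb, LOC287167, a globin gene, was among the highest entries per length, and it fell with hnRNP F (log2 fold change -3.20 ± 1.01, edgeR adjusted p = 0.0235). Slc4a1, the anion exchanger of the red cell membrane, rose with hnRNP F, to 11.6 CPM on average against 0.293 CPM in FLAG RIP. Kel, a red cell membrane glycoprotein, had 0 reads in the FLAG libraries and averaged 1.93 CPM with hnRNP H1 and 2.00 CPM with La/SSB. Every entry has reads in La/SSB RIP 1, so a La/SSB mean above FLAG libraries at 0 reads was fixed in advance. The part of red cell content in the Hba1 result was not tested.

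The contractile list of skeletal muscle, without the entries described here, held 0.0335% to 0.0686% of reads in hnRNP H1 RIP, 0.0425% to 0.0856% in hnRNP F RIP, 0.0445% to 0.0886% in hnRNP K RIP and 0.0761% to 0.245% in La/SSB RIP. It held 0.136% to 0.299% in FLAG RIP and 0.0584% to 0.2% in Input. Of its 27 entries tested against FLAG RIP, 1 rose and 3 fell with hnRNP H1, 2 rose and 4 fell with hnRNP F, 3 rose and 2 fell with hnRNP K, and 3 rose and 2 fell with La/SSB. These counts are at or below the shares of all transcripts, given above, or, with La/SSB and for those that fell with hnRNP F, near them. An entry of Tpm2, a tropomyosin that smooth muscle and fibroblasts also express, fell most with hnRNP K (log2 fold change -4.41 ± 0.49), hnRNP H1 (-4.21 ± 0.49) and La/SSB (-1.96 ± 0.44). Folds of another Tpm2 entry are not given. Mylpf was the lowest called with hnRNP F (-2.95 ± 1.06, edgeR adjusted p = 0.0439). Acta1 was called in none of these 4 comparisons, at -3.36 ± 1.36 with hnRNP H1 (edgeR adjusted p = 0.0627) and -3.12 ± 1.35 with hnRNP F (0.0884). A Tpm1 entry, another tropomyosin, rose with hnRNP H1 (6.59 ± 0.88). A second entry of Ldb3, a protein of the Z-disc, had 0 reads in the FLAG libraries and averaged 1.86 CPM with hnRNP F, 1.17 CPM with hnRNP K and 2.00 CPM with La/SSB. Its La/SSB mean was also fixed in advance to lie above FLAG RIP, as every entry has reads in La/SSB RIP 1.

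Of 11 other energy genes, 2 fell with hnRNP H1, 2 with hnRNP F and 1 with hnRNP K against FLAG RIP, while 1 rose with hnRNP K, shares near or below those of all transcripts. The medians were -2.47 with hnRNP H1, -0.50 with hnRNP F, -0.21 with hnRNP K and -0.68 with La/SSB. Ldha, lactate dehydrogenase A of many cells, fell with hnRNP H1 (log2 fold change -2.85 ± 0.35), hnRNP F (-2.05 ± 0.34) and hnRNP K (-1.63 ± 0.34). Mb, myoglobin, fell with hnRNP F, to 0.421 CPM against 25.9 CPM in FLAG RIP (edgeR adjusted p = 0.0384). This FLAG mean rests on FLAG RIP 1. In log2 CPM, FLAG RIP 1, 2 and 3 lay 5.25, -2.30 and -2.94 from their mean. Cox6a2, a muscle subunit of cytochrome oxidase, had 0 reads in the hnRNP H1 libraries, against a mean of 2.93 CPM in FLAG RIP. Gpd1, which joins glycolysis and lipid synthesis, rose with hnRNP K (2.48 ± 0.70, edgeR adjusted p = 0.0122). Pgam2, the muscle phosphoglycerate mutase, and Eno3, the muscle enolase, were not called. Of 14 entries for calcium handling 2 rose with hnRNP H1, 2 with hnRNP F, 3 with hnRNP K and 3 with La/SSB, and none of those called had fallen. The counts with hnRNP H1 and hnRNP F are near the 18.7% and 16.5% of all transcripts that rose, and those with hnRNP K and La/SSB stand against 15.7% and 8.51%. Their medians were 0.62, -0.12, 1.57 and 1.05 in that order of antibodies. An entry of Atp2a2, the calcium pump of slow muscle and of many other cells, rose with hnRNP K (1.499 ± 0.39, edgeR adjusted p = 0.00854). Folds of another Atp2a2 entry are not given. Hrc, a calcium-binding protein of the sarcoplasmic reticulum, rose with hnRNP F (6.92 ± 1.61), hnRNP H1 (5.34 ± 1.52) and La/SSB (5.26 ± 1.51). In FLAG RIP the mean of Hrc lay below the level of 3 reads, so the size of its folds is uncertain. Cacng1, a subunit of the muscle calcium channel, had 0 reads in the FLAG libraries and averaged 5.42 CPM with hnRNP K and 10.7 CPM with La/SSB. Since every entry has reads in La/SSB RIP 1, a La/SSB mean above FLAG RIP was fixed in advance for Cacng1. Ryr1, the calcium release channel, also had 0 reads in the FLAG libraries and averaged 5.67 CPM with hnRNP H1. Atp2a1, the fast calcium pump, was not called, at 2.32 ± 1.32 with hnRNP K, and neither was Casq1, the calcium store protein calsequestrin, at 1.64 ± 0.71. The part of muscle content in these results was not tested.

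Against Input, where 10.2%, 7.28% and 6.24% of all transcripts fell with hnRNP H1, hnRNP F and hnRNP K, the called entries at the ends of these lists were as follows. With hnRNP H1 Hba2 fell (log2 fold change -3.93 ± 0.41) and Epb42, a protein of the red cell skeleton, rose (3.59 ± 1.25, edgeR adjusted p = 0.0435). A Tpm2 entry fell with hnRNP H1 (-2.00 ± 0.42) and a Tpm1 entry rose (2.21 ± 0.67). Ldha fell with hnRNP H1 (-2.07 ± 0.32) and hnRNP F (-1.28 ± 0.31), and an Atp2a2 entry fell with hnRNP H1 (-1.68 ± 0.39). With hnRNP F LOC287167 fell most (-2.90 ± 0.93) and Hbb least (-1.55 ± 0.45) of the called erythroid entries, and Myoz2, a Z-disc protein, had 0 reads against 2.05 CPM in Input. With hnRNP K Hbb (-1.74 ± 0.45) and a Tpm2 entry (-2.27 ± 0.43) fell. In FLAG RIP against Input a Tpm1 entry rose (2.52 ± 0.77) and another fell (-4.43 ± 0.77), and Hrc fell to 0.0860 CPM against 2.95 CPM in Input. Kel and Cacng1 had 0 reads in FLAG RIP, against 1.41 CPM and 8.98 CPM in Input.

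For Car3 the fat cell list is given as well, with 17 of 20 symbols measured. Without Car3 it held 0.0334% to 0.0461% of reads in hnRNP H1 RIP, 0.047% to 0.0796% in hnRNP F RIP, 0.0537% to 0.0949% in hnRNP K RIP and 0.059% to 0.0941% in La/SSB RIP. It held 0.0427% to 0.105% in FLAG RIP and 0.0532% to 0.1% in Input. With hnRNP H1 2 of 17 entries rose and 2 fell against FLAG RIP, and 2 rose and 2 fell of 16 against Input. Of all transcripts 18.7% rose and 17.1% fell against FLAG RIP, and 10.2% fell and a larger share rose against Input. The counts of the list are near or below these shares. Its highest other entries per length were Lpl, the lipase of fat and muscle capillaries, Cfd, adipsin, Fabp4, a fatty acid carrier of fat cells, and Retn, resistin.

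Likeness over the 18 libraries was measured as the root mean square difference in log2 CPM after each entry was centred on its own mean, a description without a test. The 3 entries most like Hba1 were Hba2 (0.556), AC113925.2 (0.570) and Hbb (0.580), while Hba1 itself varied by 1.57 about its mean. Ckm was most like Acta1 (0.613), then Mylpf (1.11) and Pygm (1.14), with 2.21 for a flat line. Tnnc2 was most like Myh1-A (1.09), Pvalb (1.15) and Psma6, a proteasome subunit (1.37). Myh1-A was most like Tnnc2, Ckm (1.33) and Mylpf (1.42). All 3 entries nearest to Ckm, all 3 nearest to Myh1-A and 2 of the 3 nearest to Tnnc2 were thus from the muscle lists or among the entries described here. Myh1-B was most like Aox1 (0.937), Ulk4 (0.958) and Tnxb (1.03), and not like Myh1-A (2.95). Car3 was most like Gcc2 (0.363), a golgin, Cdo1 (0.446), cysteine dioxygenase, and Zfp354c (0.481), with 0.748 for a flat line. Of the lists, the entry nearest to Car3 was the fibroblast collagen Col3a1 (0.536), followed by the nearest smooth muscle entry, Tagln (0.649), and the nearest erythroid entry, Fech (0.676). The nearest leukocyte, contractile and fat cell entries were Csf1r (0.791), Tpm3 (0.801) and Thrsp (0.819). Entries with few reads differ more by counting error alone, and Myh1-B had 1 to 10 reads in its 6 libraries numbered 3.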

How the data were processed

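Sequencing read counts of 18 libraries in 6 groups of 3 were used, with groups taken from the sample titles. CASAVA 1.8.2 and edgeR are named, without a role, in the submitters' processing notes. What aligned and counted the reads, and on which genome build, is not stated by them or by the other labels. The deposited counts hold 1 added read per entry: FPKM recomputed from the counts less 1 differed from the authors' deposited FPKM by at most 5.11e-15 of its size, so reads are counts less 1. The table's log2 fold changes and p-value columns (FDR, p or q) are the authors' own comparisons, deposited with the table, and are quoted by name only. How the table was filtered is not stated, but La/SSB RIP 1 is the only library in which every entry has reads. Transcripts without reads in La/SSB RIP 1 are thus absent, which favours rises with La/SSB among entries with few reads.

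Reads were tested with edgeR 4.0.16 (limma 3.58.1, R 4.3.3): filterByExpr (minimum count 10, minimum total 15), TMM, and the two-sided quasi-likelihood F-test. RIPs were compared with FLAG RIP in a fit of 15 libraries (13227 transcripts, 10 residual degrees of freedom) and groups with Input in a fit of all 18 (13263 transcripts, 12 residual degrees of freedom). Each fit shares 1 estimate of the spread per transcript over its groups, although the spread was widest in FLAG RIP. P-values were adjusted by Benjamini-Hochberg over all transcripts of a fit. Folds are log2 ± SE, 3 libraries against 3, and levels are CPM ± SD. Where a group had 0 reads no fold is given. The exact 95% Poisson intervals and the limit that a count of 0 allows (3 reads) cover counting error only. The test was checked on simulated data. Alternatives were other scalings, no filter, counts as deposited, DESeq2 1.42.0, only the libraries compared, the replicate number as a block, FLAG RIP 2 standing alone for FLAG, and each library left out.

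The transcripts and gene lists were chosen with earlier results of these data known. The named genes are all entries described here, the 3 entries most like each, the 4 entries of a list with the highest mean FPKM, the highest and lowest called entry of the red cell and muscle lists in each comparison, and paralogs with a row; 1 entry that this rule names is not reported here. Lists of smooth muscle and mural cells, leukocytes, endothelium, Schwann cells, fibroblasts and neurons served as checks.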

Additional observations from a re-analysis of the deposited data

How the results depend on the processing

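Of 906 values of the 6 entries under an alternative, 793 kept their direction and their side of the threshold. A call was lost with the sign kept in 28, 39 gained a call and 46 turned their sign. Calls lost as the sign turned count among the 46 only. The F values among the specific RIPs have no sign and were sorted by their call alone. Depth limits Myh1-A, with 0 to 5 reads in the library numbered 2 of the specific RIPs, Myh1-B, with 1 to 10 reads in the libraries numbered 3, and Tnnc2 in hnRNP K RIP 2, with 4 reads. Calls of Tnnc2 with hnRNP H1 against FLAG RIP were also lost with DESeq2's size factors (edgeR adjusted p = 0.0547), and those of Tnnc2 with hnRNP H1 (0.0664) and hnRNP K (0.0671) and of Car3 with hnRNP H1 (0.0723) with only the libraries compared. The causes were not tested.

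The number of entries called against FLAG RIP was 4 with hnRNP H1 but 2 with only the libraries compared and 1 with FLAG RIP 2 standing alone for FLAG. With hnRNP F it was 1 but 2 with scaling by total counts, with hnRNP K 3 but 0 with FLAG RIP 2 alone, and with La/SSB 1 but 0 with FLAG RIP 2 alone or with only the libraries compared. Against Input it was 0 with hnRNP K but 1 with total counts and 2 with only the libraries compared, and for FLAG RIP 0 but 1 on the counts as deposited. Among the specific RIPs it was 1 but 2 with total counts or only the libraries compared. Leaving out single libraries gave 1 to 5, 1 to 2, 1 to 3 and 1 against FLAG RIP with hnRNP H1, hnRNP F, hnRNP K and La/SSB. Against Input it gave 1 to 3, 1, 0 and 0 for the same antibodies and 0 to 1 for FLAG RIP, and 1 among the specific RIPs. In the libraries numbered 1 and 3 only, a setting chosen after seeing the data, 3 entries were called with hnRNP F and 2 with La/SSB against FLAG RIP, and 2 among the specific RIPs.

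Libraries of the same number were not taken as pairs, since no label ties numbers to animals and 9 of 45 same-number correlations passed 0.1. These correlations of deviations ranged from 0.0116 to 0.186, all above 0. Of the libraries 18 of 18 correlated best with their own number (a hint from the data, not the design). With the replicate number as a block, 5, 3, 4 and 3 entries were called against FLAG RIP with hnRNP H1, hnRNP F, hnRNP K and La/SSB, 3, 2, 3 and 0 against Input, 1 for FLAG RIP against Input and 3 among the specific RIPs. The shares of all transcripts called under the block are not set beside these counts. With the block Ckm was called against FLAG RIP with hnRNP F (edgeR adjusted p = 0.000381) and hnRNP K (0.00779), against Input with hnRNP H1 (9.96e-06) and hnRNP F (0.00148), and among the specific RIPs (0.000173). Myh1-A was called against FLAG RIP with hnRNP H1 (edgeR adjusted p = 0.00256), hnRNP F (0.00375) and La/SSB (0.0134), and Tnnc2 with La/SSB (0.0235). Against Input with hnRNP K, the block called Hba1 (edgeR adjusted p = 0.028), Tnnc2 (0.00318) and Myh1-A (0.0089). The block turned Myh1-B against Input to 0.57 with hnRNP H1 and 0.21 with hnRNP F.

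FLAG RIP 2 was set alone for FLAG with earlier results known, and it is the lowest FLAG library for Hba1, Ckm, Tnnc2 and Myh1-A. Their lost calls and turned signs under this setting follow from that choice and test nothing, and FLAG RIP 1 or 3 alone was not run. The folds with hnRNP H1, hnRNP F, hnRNP K and La/SSB turned to 0.22, 1.79, 2.76 and 3.71 for Ckm and to 1.08, 2.60, 0.068 and 2.08 for Tnnc2. Those of Myh1-A turned to 0.17 with hnRNP H1, 0.72 with hnRNP F and 0.65 with La/SSB, and those of Car3 to 0.19 with hnRNP F and 0.34 with hnRNP K. FLAG RIP 2 against Input gave -3.88 for Ckm, -2.39 for Tnnc2 and -1.81 for Myh1-A. Total counts turned Tnnc2 with hnRNP F against Input to -0.26 and Ckm with La/SSB against Input to 0.035. Car3 in FLAG RIP against Input turned to 0.16 on the counts as deposited and to 0.071 in the libraries numbered 1 and 3 only.

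Without single libraries the sign of uncalled folds also turned. Against FLAG RIP the range was -1.88 to 0.34 for Myh1-B with hnRNP F, -2.81 to 0.64 for Myh1-B with La/SSB, and for Car3 -1.03 to 0.45 with hnRNP F, -0.84 to 0.60 with hnRNP K and -1.26 to 0.18 with La/SSB. Against Input Myh1-B ranged from -1.17 to 1.05 with hnRNP H1, -0.83 to 1.49 with hnRNP F, -2.35 to 0.12 with hnRNP K, -1.75 to 1.79 with La/SSB and -0.52 to 2.73 in FLAG RIP. Ckm ranged from -1.90 to 0.33 with hnRNP K, -1.38 to 1.28 with La/SSB and -0.093 to 2.29 in FLAG RIP. Tnnc2 ranged from -0.80 to 0.82 with hnRNP F and -0.93 to 0.30 with La/SSB, and Car3 from -1.11 to 0.33 in FLAG RIP.

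Scaling by total counts moved the median of all transcripts against FLAG RIP to -0.64 with hnRNP H1, -0.58 with hnRNP F, -0.81 with hnRNP K and 0.07 with La/SSB. Lower and higher calls were then 3399 and 1890 with hnRNP H1 (2256 and 2478 with TMM), 2819 and 1636 with hnRNP F (1805 and 2183), 3467 and 1222 with hnRNP K (1971 and 2073) and 413 and 1185 with La/SSB (709 and 1126). Against Input they were 2460 and 1105 with hnRNP H1 (1352 and 1704), 1837 and 923 with hnRNP F (965 and 1439), 1999 and 295 with hnRNP K (828 and 870) and 1 and 5 with La/SSB (3 and 3). With only the libraries compared, transcripts called against FLAG RIP were 2583, 1451, 2434 and 58 with hnRNP H1, hnRNP F, hnRNP K and La/SSB, against 4734, 3988, 4044 and 1835, and against Input 4068 with hnRNP K (1698), 92 with La/SSB (6) and 82 for FLAG RIP (1576). DESeq2 called 94 with La/SSB and 2585 for FLAG RIP against Input, and the block 30 with La/SSB. FLAG RIP 2 alone gave 2541 with hnRNP F, 2551 with hnRNP K and 418 with La/SSB, and 444 against Input. Without single libraries the lowest counts were 2584 with hnRNP K and 882 with La/SSB against FLAG RIP, and 853, 0 and 761 with hnRNP K, La/SSB and FLAG RIP against Input. In the libraries numbered 1 and 3 only they were 3095 with hnRNP H1, 2503 with hnRNP K and 860 with La/SSB against FLAG RIP, 1381, 1001, 354 and 1 against Input, 801 for FLAG RIP against Input and 1934 (4062) among the specific RIPs.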
